A study of Mus musculus with 6 samples.

Results

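The E2F transcription factors and the retinoblastoma (RB) family were read as 10 genes, E2f1, E2f2, E2f3, E2f4, E2f6, E2f7, E2f8, Rb1, Rbl1 and Rbl2. They were chosen by name, as the rows of the deposited gene table that carry these symbols, and make up 10 of its 22322 genes. RNA-Seq had been performed on sorted CD4 and CD8 double-positive (DP) thymocytes, the stage at which most thymocytes pause before selection, in 3 control libraries and 3 Paxbp1 cKO libraries. Controls were Paxbp1fl/fl littermates, labelled WT, and cKO mice were Paxbp1fl/fl Lckcre. Both groups therefore carried the floxed allele, on a C57BL/6 background, and received no treatment. The mice of the study were 4 to 7 weeks old and of mixed sexes, and the labels give neither the age and sex behind a library nor whether each library came from its own mouse, so that p-values measure the spread between these libraries. The cre transgene is driven by the Lck promoter, which is active in the T cell lineage from the early thymocyte stages, and the sort was for the DP stage.

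E2F proteins bind DNA with a DP partner and set the level of genes needed for the entry into S phase. E2F1, E2F2 and E2F3 are known mainly as activators, E2F4 and E2F6 as repressors, and E2F7 and E2F8 as atypical repressors that bind DNA without a DP partner. The pocket proteins RB, p107 (from Rbl1) and p130 (from Rbl2) hold E2F factors in check until cyclin-dependent kinases phosphorylate them, and p107 or p130 with E2F4 and the MuvB core form the DREAM complex of resting cells. Several E2F genes and Rbl1 are themselves E2F targets. In the thymus, E2F activity is known to accompany the burst of division that precedes the resting small DP cell.

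The sites through which E2F factors are known to act were read first, because they show which members carry the E2F letters in their own promoter. RefSeq windows on GRCm38.p6, each 300 bases long (250 before and 50 after a transcription start), were searched on both strands for TTTCCCGC, TTTCGCGC, TTTGCCGC and TTTGGCGC. One of these 8-base words stood in 744 of 32851 windows (2.26%), or in 704 of 27025 genes (2.60%). Among the genes tested further on, 452 of 9154 with a window held a match (4.94%). Of the 10 members, E2f4 and Rb1 had no window. Of the 8 with a window, 4 held a match, namely E2f2, E2f3, E2f7 and Rbl1. The match of E2f2 began 39 bases after the start. The other matches lay before it, at 11 bases for E2f3, 198 for E2f7 and 18 for Rbl1, and read as follows with up to 26 bases to each side, on the strand of the gene and with the matched word or its reverse complement in capitals.
E2f3, chr13:29986064-29986100, minus strand: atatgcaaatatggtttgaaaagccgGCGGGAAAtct
E2f7, chr10:110745215-110745274, plus strand: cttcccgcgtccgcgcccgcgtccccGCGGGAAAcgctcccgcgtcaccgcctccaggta
Rbl1, chr2:157204535-157204578, minus strand: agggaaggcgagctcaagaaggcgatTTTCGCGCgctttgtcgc

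No match stood in the windows of E2f1, E2f6, E2f8 and Rbl2. For E2f1 the RefSeq start that was used lies 466 bases inside the GENCODE gene, and 188 of the bases before it are coding sequence, so that its window does not cover the promoter. For comparison, 6 genes known as E2F targets were read, the 3 with the largest and the 3 with the smallest called changes further on. Chek1, Fen1 and Mcm2 held no match, and the matches before the start of Orc1, Cdc6 and Mcm7 read:
Orc1, chr4:108579401-108579453, plus strand: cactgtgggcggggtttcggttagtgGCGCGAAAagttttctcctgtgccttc
Cdc6, chr11:98907987-98908046, plus strand: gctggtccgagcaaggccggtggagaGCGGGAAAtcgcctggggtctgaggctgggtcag
Mcm7, chr5:138172015-138172074, minus strand: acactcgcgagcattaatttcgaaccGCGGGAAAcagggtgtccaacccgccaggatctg
A match is a description of letters, and binding was not measured.

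The libraries held 18963775 to 26252248 counts, and counts were scaled by TMM factors of 0.981 to 1.01 to CPM, counts relative to library size. Genotypes were compared with the quasi-likelihood test of edgeR over 11488 genes, with Benjamini-Hochberg adjustment over all of them, and a gene was called at an adjusted p below 0.05. In bulk samples fewer cells of a type and less RNA per cell cannot be told apart. The count of Paxbp1 was 774, 318 and 400 in the controls, against 851, 905 and 1075 where the label is cKO (edgeR log2 fold change 0.92, adjusted p = 0.0977). Cre removes exon 8 alone and the table counts whole genes, so these counts do not check the genotype, which stands by the label. On the second principal component, which held 18.1% of the variance, control library 1 (36.6) lay apart from control libraries 2 and 3 (-13.8 and -14.6). The cKO libraries 1, 2 and 3 were spread along it as well (21.2, -32.0 and 2.63). Values without control library 1 are given where they matter. Of the DP markers, 10 of 10 were measured. Rag1, Cd3e and Cd8b1 fell by 0.85, 0.61 and 0.58 on the log2 scale (edgeR adjusted p = 0.00923, 0.0104 and 0.0383), and no DP marker rose.

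All 10 members were expressed in DP thymocytes, passed the filter on low counts and were tested. In the libraries labelled cKO, E2f1 rose and no other member passed the test. That is 1 of 10 members called, where 10.4% of all tested genes were called in either direction (4.47% higher and 5.89% lower). No member had an absolute log2 fold change above 1, the limit that 2.76% of tested genes passed along with the adjusted p. By sign alone, 7 members had higher and 3 lower fitted values, with a median log2 fold change of 0.25 over the members and -0.0017 over all tested genes. The members' median was 0.05 without control library 1 and reached 0.42 without control library 3. In 3 members the 3 cKO libraries did not overlap the 3 controls (E2f1 and E2f3 above, Rb1 below), against 33% of all tested genes. An unadjusted p below 0.05 was reached by 4 members, E2f1, E2f3, E2f8 and Rb1, and by 27.9% of tested genes.

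**Figure D1:**
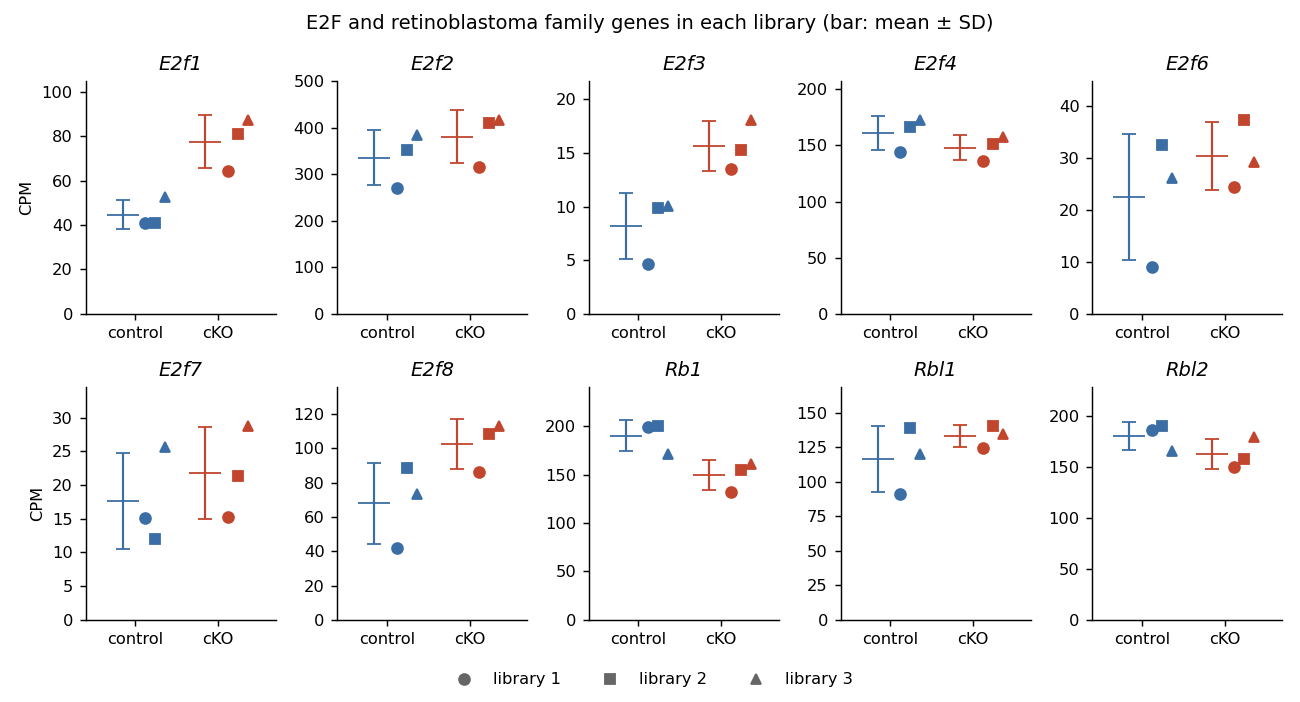
CPM of each of the 10 genes, from 0 upward, with 1 point per library (circle, square and triangle for libraries 1, 2 and 3) and the mean with its SD beside the points, control in blue and cKO in red. The cKO points of E2f1 and E2f3 lie above all control points and those of Rb1 below, while the other 7 genes overlap, and control library 1 is the lowest of the 6 points of E2f1, E2f2, E2f3, E2f6, E2f8 and Rbl1.

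E2f1 (ENSMUSG00000027490, GRCm38 chromosome 2, 154559407 to 154569892, minus strand), the activator best known for driving S phase entry and also cell death, measured 40.8, 41.0 and 52.5 CPM in control libraries 1, 2 and 3. The libraries labelled cKO gave 64.3, 80.9 and 87.5 CPM. Every cKO library was above every control, and the lowest cKO value stood clear of the highest control. The mean went from 44.8 ± 6.73 to 77.6 ± 12.0 CPM (SD, n = 3), a 1.73-fold rise with a 95% interval of 1.35 to 2.23 (log2 fold change 0.79, standard error 0.16, edgeR adjusted p = 0.0167). It ranked 433 by p among all tested genes. With 1 library left out, the fold kept its direction, but the call was lost without control library 2 (log2 fold change 0.73, adjusted p = 0.0705), without cKO library 2 (0.76, adjusted p = 0.0516) and without cKO library 3 (0.70, adjusted p = 0.0944). In the same order, 178, 332 and 42 of all tested genes were called higher, against 514 with all libraries.

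E2f2 (ENSMUSG00000018983, chromosome 4, 136172394 to 136196057, plus strand) was the most abundant activator of these cells. Mice that lack it are known for T cells that divide too readily. Its values were 269, 351 and 385 CPM in the controls and 315, 409.7 and 417 CPM in the cKO libraries. The groups overlapped, since cKO library 1 lay below 2 of the 3 controls. The log2 fold change was 0.18 with a 95% interval of -0.17 to 0.53 (edgeR adjusted p = 0.491), and it ran from 0.05 without control library 1 to 0.30 without cKO library 1.

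E2f3 (ENSMUSG00000016477, chromosome 13, 29906575 to 29986063, minus strand), an activator that dividing cells need for S phase entry, was the least abundant member. It had 90, 192 and 260 counts in the controls, equal to 4.67, 9.87 and 10.1 CPM, and 296, 294 and 392 counts in the cKO libraries, equal to 13.5, 15.3 and 18.1 CPM. The groups did not overlap. Its log2 fold change, 0.93 (95% interval 0.25 to 1.60), was the largest of the 10 in size but did not pass the test (edgeR adjusted p = 0.0778), while DESeq2 gave it an adjusted p of 0.0318. Leaving out control library 1 gave 0.64 (edgeR adjusted p = 0.0805), and leaving out control library 3 gave 1.10. The coefficient of variation was 37.4% among controls and 14.8% among cKO libraries.

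Among the repressors, E2f4 (ENSMUSG00000014859, chromosome 8, 105297663 to 105305370, plus strand), the E2F that carries p107 and p130 to promoters in resting cells, varied little, with coefficients of variation of 9.29% and 7.40%. It measured 144, 167 and 173 CPM in the controls and 136, 151 and 157 CPM in the cKO libraries. The ranges overlapped and the log2 fold change was -0.12 (95% interval -0.39 to 0.14, edgeR adjusted p = 0.551), an interval that leaves out a rise or fall of the size seen for E2f1. It ran from -0.20 without control library 1 to -0.07 without cKO library 1.

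E2f6 (ENSMUSG00000057469, chromosome 12, 16810963 to 16839742, plus strand) represses without pocket proteins, through a Polycomb complex. Controls 1, 2 and 3 gave 8.97, 32.4 and 26.2 CPM, and the cKO libraries 24.4, 37.3 and 29.2 CPM. The groups overlapped, and control library 1 stood far below the other controls, at 0.310 of their level (geometric mean). Only 1.44% of tested genes were lower still in that library against the other controls. The fitted log2 fold change of 0.43 (edgeR adjusted p = 0.499) became 0.05 without it and 0.78 without control library 2.

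E2f7 and E2f8 encode the atypical repressors, which shut off E2F targets later in S phase and are E2F1 targets themselves. E2f7 (ENSMUSG00000020185, chromosome 10, 110745439 to 110787384, plus strand) measured 15.1, 12.0 and 25.7 CPM in the controls and 15.2, 21.4 and 28.8 CPM in the cKO libraries. The spread within each group was larger than the distance between them, and the log2 fold change was 0.30 (95% interval -0.38 to 0.99, edgeR adjusted p = 0.572). With 1 library left out it was 0.05 (cKO library 3), 0.09 (control library 2) or 0.20 (control library 1), and as high as 0.68 (control library 3) and 0.51 (cKO library 1). E2f8 (ENSMUSG00000046179, chromosome 7, 48866429 to 48881596, minus strand) measured 42.0, 88.4 and 73.2 CPM in the controls and 86.1, 108 and 113 CPM in the cKO libraries. Control library 2 just exceeded cKO library 1, so that the groups overlapped at that pair alone. The log2 fold change of E2f8 was 0.59 (95% interval 0.07 to 1.11, edgeR adjusted p = 0.132), and 0.34 without control library 1, in which E2f8 was at 0.523 of the other controls. Without control library 2 it was 0.83.

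Of the pocket proteins, Rb1 (ENSMUSG00000022105, chromosome 14, 73183673 to 73325822, minus strand), which encodes RB, the main partner of the activators, measured 199, 200.1 and 172 CPM in the controls. The cKO libraries gave 132, 155 and 161 CPM. All 3 lay below the lowest control. The log2 fold change was -0.35 (95% interval -0.62 to -0.07), or 0.786-fold, and did not pass the test (edgeR adjusted p = 0.0979). Under the 14 alternative settings it lay between -0.42 and -0.27 and the adjusted p between 0.0799 and 0.276.

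Rbl1 (ENSMUSG00000027641, chromosome 2, 157145893 to 157204534, minus strand), whose product p107 is the pocket protein of dividing cells, measured 91.0, 139 and 119.8 CPM in the controls and 124, 140.4 and 134 CPM in the cKO libraries. The groups overlapped (log2 fold change 0.19, edgeR adjusted p = 0.461), and the fold was 0.04 without control library 1 and 0.33 without control library 2. Rbl2 (ENSMUSG00000031666, chromosome 8, 91070057 to 91123844, plus strand), whose product p130 is the pocket protein of resting cells, measured 186, 189.9 and 165 CPM in the controls and 150.0, 158 and 179 CPM in the cKO libraries. These ranges overlapped too (log2 fold change -0.15, edgeR adjusted p = 0.441, with -0.23 without cKO library 3 and -0.10 without cKO library 1). Genes on the other strand overlap E2f3, E2f7, E2f8, Rb1, Rbl1 and Rbl2. No source used here says whether reads were counted by strand, so that some of their reads may belong to the partner. Of the 4 genes that overlap Rb1 only 2 are on the other strand, so counting by strand would not separate all of its reads.

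**Figure D2:**
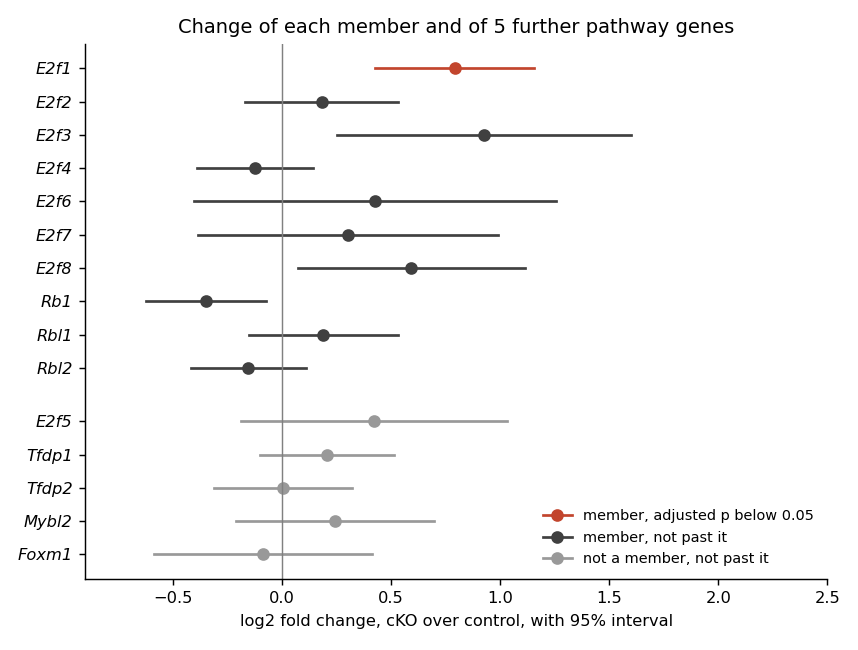
Log2 fold change (cKO over control, x axis) of each gene with its 95% interval from edgeR, for the 10 members and, below them, 5 further genes of the pathway. Only E2f1 is past an adjusted p of 0.05, at 0.79, the intervals of E2f3, E2f8 and Rb1 also leave out 0 before adjustment, and those of the other genes include it.

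Levels were compared between members per length, on the authors' FPKM. In the controls the order from the highest level was E2f4 (80.3 ± 6.29 FPKM, mean ± SD, n = 3), E2f2 (70.1 ± 11.5), Rb1 (40.6), Rbl2 (36.5), Rbl1 (23.8), E2f8 (18.2), E2f1 (16.2), E2f6 (9.47), E2f7 (5.22) and E2f3 (1.62). The ranges of neighbours overlapped for E2f4 and E2f2, for Rb1 and Rbl2, for Rbl1, E2f8 and E2f1 in turn, and for E2f6 and E2f7. DP thymocytes thus carried a repressor and an activator, E2f4 and E2f2, at similar levels above all other members. In the cKO libraries E2f2 (80.8 ± 12.0) and E2f4 (74.8 ± 5.31) again led and overlapped. E2f1 stood at 28.5 ± 4.31 FPKM there, in a run of overlapping neighbours from Rbl2 (33.4) over Rb1 (32.3), E2f1 and E2f8 (28.0) to Rbl1 (27.5). E2f6 (13.3), E2f7 (6.59) and E2f3 (3.15) followed with no overlap between neighbours.

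As shares of the summed FPKM of the 7 E2F genes, E2f1 made up 9.02%, 6.94% and 8.46% in the controls and 11.7%, 12.0% and 12.6% in the cKO libraries. E2f4 made up 43.8%, 38.7% and 38.2% in the controls and 34.0%, 30.7% and 31.2% in the cKO libraries. Neither share overlapped between the groups, whereas the share of E2f2 stayed within 33.1% and 35.7% over all 6 libraries. Together E2f7 and E2f8 took 9.998% to 12.8% in the controls and 14.4% to 15.1% in the cKO libraries. Among the pocket proteins, Rb1 took 38.7% to 43.0% of the summed FPKM in the controls and 33.6% to 35.3% in the cKO libraries, and Rbl1 18.9% to 25.9% and 27.9% to 30.6%. Shares add up to a whole, so that a gain of one member lowers the others.

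**Figure D3:**
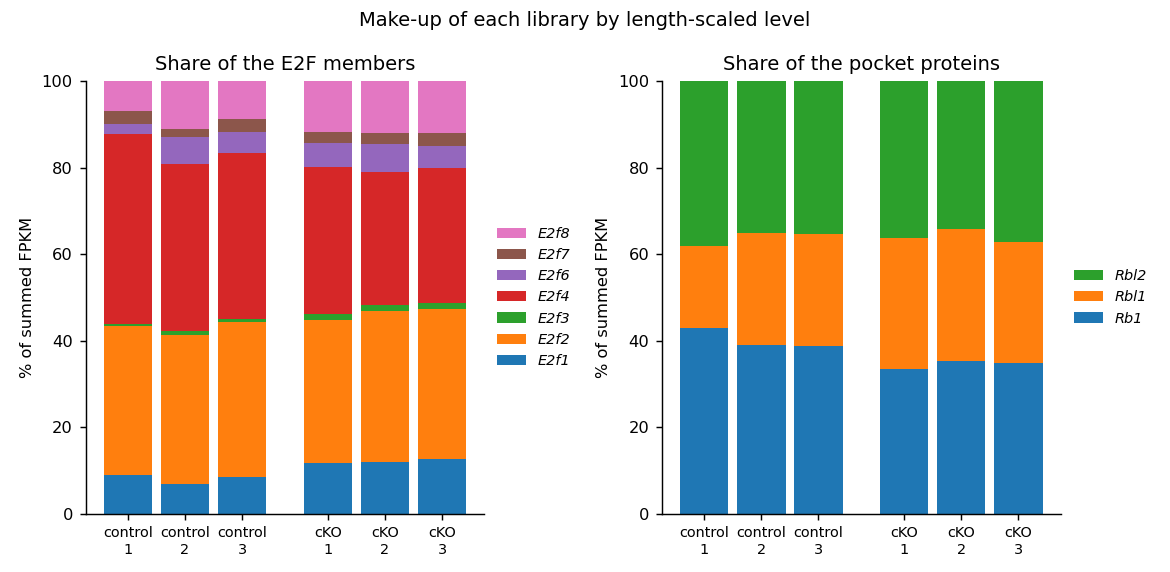
Percent of the summed FPKM (y axis) taken by each of the 7 E2F genes (left) and each of the 3 pocket proteins (right) in each of the 6 libraries (1 bar each). E2f2 and E2f4 together fill 73.0% to 78.1% of the control bars and 65.6% to 67.1% of the cKO bars, with a wider E2f1 segment in each cKO bar.

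Ratios within a library were tested by an exact two-sided permutation test over the 20 assignments of genotype, which cannot go below p = 0.1. The log2 ratio of the atypical pair to the 3 activators was -1.93 ± 0.21 in the controls and -1.70 ± 0.02 in the cKO libraries (SD, n = 3, difference 0.23, exact p = 0.2). Control library 1 was lowest at -2.14, and control library 2, at -1.72, lay among the cKO libraries. The difference was 0.13 without control library 1 and 0.33 without control library 2. The log2 ratio of Rbl1 to Rbl2 was -1.01, -0.44 and -0.45 in the controls and -0.26, -0.16 and -0.41 in the cKO libraries. These groups did not overlap, although the nearest values lay close together (difference 0.36, exact p = 0.1, the smallest the design allows). Without control library 1 the difference was 0.17.

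The genes whose log2 CPM followed E2f1 most closely over the 6 libraries were Ssr1 (Pearson's r = 0.995), Dhx15 (0.993), Fen1 (0.992), Naxd (0.992) and Gmnn (0.990). Fen1 encodes a flap endonuclease of DNA replication, and Gmnn encodes geminin, the inhibitor of the licensing factor CDT1. Only Fen1 is in the list of G1/S targets read further on, and Ssr1, Dhx15, Naxd and Gmnn are not. Among the other members, r with E2f1 was 0.86 for E2f3, 0.76 for E2f8, 0.70 for E2f7 and E2f2, 0.55 for Rbl1 and E2f6, -0.18 for E2f4, -0.54 for Rbl2 and -0.73 for Rb1. The points are 3 libraries of each genotype, so that genes which differ between the groups share that difference, and these values are a description.

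The partners of the E2F proteins gave no call. E2f5, a further repressor, stood at a log2 fold change of 0.42, adjusted p = 0.351 by edgeR. Tfdp1 and Tfdp2, which encode the DP partners, had 0.21 and 0.01 (adjusted p = 0.369 and 0.988). Of the MuvB and DREAM partners 6 of 7 were tested and 0 were called by edgeR, DESeq2 or limma-voom, with 0 at an unadjusted p below 0.05, as was the case for E2f5, Tfdp1 and Tfdp2. Mybl2 and Foxm1, which take MuvB over for activation in G2, had 0.25 and -0.09 (adjusted p = 0.474 and 0.847). Upstream of the pocket proteins, 14 of 16 G1 cyclins, kinases and inhibitors were tested. Ccne2, a cyclin E that turns on CDK2 and is an E2F target, rose (log2 fold change 1.24, edgeR adjusted p = 0.00349), and Cdkn2d, the CDK4 and CDK6 inhibitor p19, fell (-0.59, adjusted p = 0.0113). Ccne2 stayed called with any 1 library left out, and Cdkn2d did not without control library 2 or cKO library 3. That is 7.14% in each direction. An unadjusted p below 0.05 by edgeR was reached by 9 of 14, 2 of them lower, against 27.9% of all tested genes. The groups did not overlap in 8 of 14, against 33%. DESeq2 called 5 genes of this list in place of 2, adding Ccnd2, Cdk4 and the inhibitor Cdkn1a, all higher (named after their values were seen). By edgeR, these had log2 fold changes of 1.68, 0.50 and 1.31 (adjusted p = 0.0614, 0.0956 and 0.0569).

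Downstream, 54 genes known as E2F targets of G1 and S phase were all tested. This list was chosen with earlier results of these data known, so its shares beside all tested genes are a description. It holds Ccne1, Ccne2 and Cdc25a, which are also in the list of G1 genes above. In the libraries labelled cKO 25 of the 54 rose (46.3%, against 4.47% of all tested genes) and 0 fell (0 lower at an unadjusted p below 0.05, and 0 by DESeq2 or limma-voom), and 12 of the 25 were past a log2 fold change of 1. The median log2 fold change was 0.57, against -0.0017 over all tested genes, and 39 of 54 had all cKO libraries above all controls, where 33% of tested genes did not overlap in either direction. At the top were Orc1, a subunit of the origin recognition complex (1.78), Chek1, the replication checkpoint kinase (1.40), and Cdc6, which loads the MCM helicase (1.38). The smallest rises called were those of Mcm7 (0.48), Fen1 (0.51) and Mcm2 (0.59). With cKO library 3 left out 8 of the 54 were called, with a median of 0.49, and 42 of 11710 tested genes were called higher. With control library 3 left out 29 were called, with a median of 0.71, and 285 of 11771 tested genes were called higher.

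Genes known as targets of DREAM and FoxM1 in G2 and M phase gave other values. Of 35 tested, 1 rose (2.86%), Anln, which encodes the cytokinesis protein anillin (log2 fold change 0.69, edgeR adjusted p = 0.0394), and the median was 0.07. The call of Anln held without cKO library 2 and was lost with any other library left out. Without control library 1 the list held 6 calls, all lower in cKO (Birc5, Ccnb2, Cdca3, Cenpa, Hmmr and Racgap1, chosen here after their values were seen), and a median of -0.14. Calls rose over all genes as well without that library. Of 11873 tested, 1030 were called lower and 1000 higher, against 677 and 514 of 11488 with all libraries. Mean log2 CPM over the G1/S list was 6.73, 7.07 and 7.25 in the controls and 7.53, 7.66 and 7.85 in the cKO libraries. Over the G2/M list it was 6.88, 7.52 and 7.61 and then 7.20, 7.48 and 7.55, with overlap between the groups. The G1/S mean lay below the G2/M mean in all 3 controls (by 0.15, 0.44 and 0.36) and above it in all 3 cKO libraries (by 0.33, 0.18 and 0.30), and the difference between the lists was not tested.

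**Figure D4:**
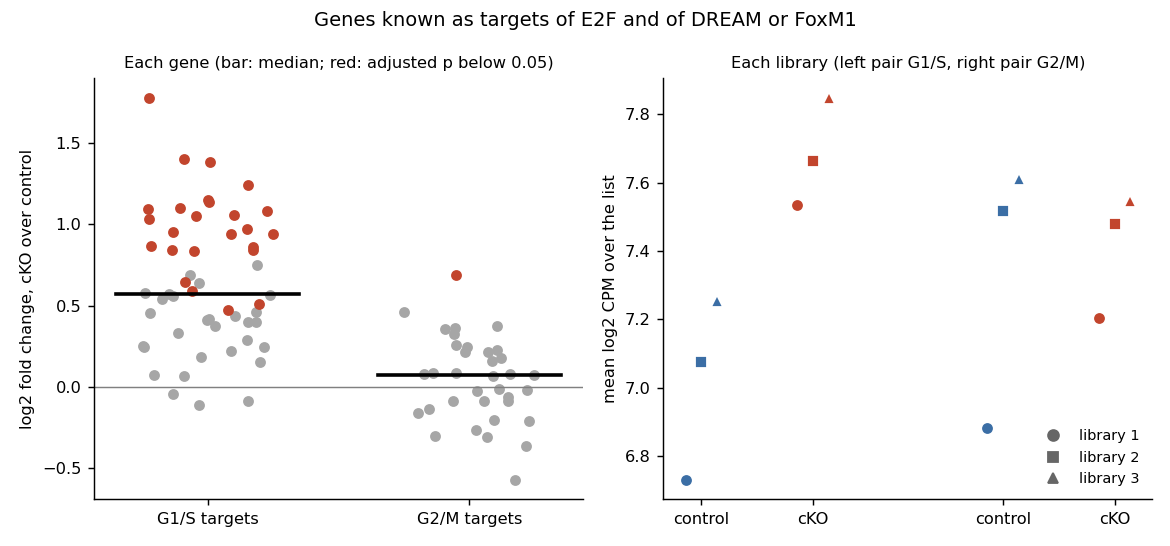
Left, log2 fold change (cKO over control) of each gene known as a G1/S target of E2F (54) or as a G2/M target of DREAM or FoxM1 (35), with the median as a bar and called genes in red. Right, mean log2 CPM over each list in each library, control in blue and cKO in red. The G1/S points of cKO lie above those of the controls, and the G2/M points overlap with control library 1 lowest.

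The E2F letters stood in the promoter window of 22 of 44 G1/S genes that had a window and in 0 of 30 G2/M genes. Among all tested genes with a window it was 452 of 9154 (4.94%). Of the 21 called G1/S genes with a window 11 held a match, as did 11 of the 23 that were not called. A window can miss the promoter, as for E2f1, and the difference was not tested. Among all tested genes with a window, 9.07% of 452 with a match were called higher, against 4.25% of 8702 without. Called lower were 3.76% of those with a match and 5.91% of those without. With the G1/S list left out, 6.98% of 430 with a match were called higher and 3.95% lower.

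Around E2F6, 10 Polycomb partners were tested and 1 rose, Cbx3, which encodes a heterochromatin protein (log2 fold change 0.48, edgeR adjusted p = 0.0353), a call that held without control library 1 and was lost with any other library left out. Of 8 germline genes known to be silenced by E2F6, 3 had enough counts to be tested and 0 were called by edgeR, with 1 at an unadjusted p below 0.05 that DESeq2 called, Stag3 (named after its values were seen).

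Markers of other stages and cell types were read beside these values. Of the early thymocyte markers, 3 of 9 tested rose, Hes1 by 2.79, Il2ra by 1.24 and Dtx1 by 0.94 on the log2 scale. The other tested genes of this list lay between -0.93 and 0.07, 5 of them below 0, and the median of the list was -0.0091. Without control library 1, Ptcra and Tcf7 were called lower. Of the genes of large cycling thymocytes, Slc7a5, an amino acid transporter chain, rose (1.31), and Cd27 fell (-0.60). Of 12 macrophage markers 9 were tested and 5 rose (C1qb, C1qc, Vcam1, Cd68 and Adgre1), and the summed level of the list was 10.1 to 29.4 CPM in the controls and 54.0 to 75.0 CPM in the cKO libraries, with Mertk at 0 counts in all 6 libraries and Adgre1 at 0 in the controls. Of 6 B cell markers 2 were tested and Cd79b fell (-0.70). Mature single-positive, dendritic cell, erythroid and thymic epithelial markers gave 0 calls by edgeR, DESeq2 and limma-voom, and an unadjusted p below 0.05 for 2, 0, 0 and 0 of them. With any 1 library left out, Hes1, Slc7a5 and Adgre1 stayed called, while without cKO library 3 0 DP markers, 1 macrophage marker and 0 B cell markers were called by edgeR. Without cKO library 3, 42 of 11710 tested genes were called higher and 78 lower. The part of these cells in the rise of E2f1 and of the G1/S targets was not tested.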

How the data were processed

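RNA-Seq of sorted DP thymocytes was deposited as 1 table of 22322 genes. The count columns are raw reads that the authors assigned to genes, and the FPKM columns are the authors' values scaled to gene length and library size. Columns of the authors' own comparison, group means included, were not used. The submitters' processing notes name fastp 0.18.0, Bowtie2 2.2.8, HISAT2, StringTie and RSEM, in no stated order. The genome build and the strand setting of the counting were not given in those sources. The study's methods name a Discover-sc WTA kit and the labels a SMARTER kit, and which was used is not known here. Positions of 22267 genes were looked up by Ensembl identifier in GENCODE M21 (GRCm38).

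The deposited counts went into edgeR 4.0.16 (R 4.3.3) with these steps: filterByExpr (minimum count 10, minimum total 15), TMM factors, glmQLFit and glmQLFTest on genotype alone, and Benjamini-Hochberg adjustment over 11488 genes of 15349 with a count. Libraries held 18963775 to 26252248 counts, which made 1 count equal to 0.0381 to 0.0527 CPM. Replicates varied with a common biological coefficient of variation of 0.228, and no replicate pair was a duplicate (chi-square per degree of freedom at least 19.1). Correlations used log2 CPM with a prior count of 2. FPKM was used for levels, shares and ratios. The fit was tested on simulated data of the same 3 against 3 layout. Of 200 genes changed among 11268, 155 (77.5%) were called, along with 10 unchanged genes. A simulation without any change gave 0 calls. The 77.5% holds only for the sizes of change that were simulated. The share that would be called at the fold changes of the members was not tested, so it does not bear on the members left uncalled. Alternatives were DESeq2 1.42.0, RLE factors, library totals, no filter, a mean of at least 5 CPM, limma-voom (limma 3.58.1), a replicate block and each library left out, for the ratios also TMM-scaled CPM in place of FPKM. Leaving out control library 1 and cKO library 3 together was added after the data were seen.

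The members and the gene lists were chosen with earlier results of these data known. Named genes were the members, Paxbp1, E2f5, Tfdp1, Tfdp2, Mybl2, Foxm1, every called gene of a list with at most 6 calls, otherwise the 3 largest and 3 smallest called changes, and the 5 genes most correlated with the member of lowest p. Lin54 of the MuvB list was not analysed here.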

Additional observations from a re-analysis of the deposited data

How the results depend on the processing

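E2f1 kept its direction under all 14 alternatives, with log2 fold changes between 0.63 and 0.92, and the members other than E2f2 and E2f7 kept theirs as well. E2f2 (-0.0233) and E2f7 (-0.0498) turned lower only with control library 1 and cKO library 3 left out together, a setting chosen after the data were seen, under which 0 members were called, 5 G2/M targets and 0 Polycomb partners. The number of members called was 2 with DESeq2 (E2f1 and E2f3) and 3 with the replicate block (E2f1, E2f3 and E2f8), and 0 to 1 with 1 library left out. Over all tested genes, libraries of the same replicate number did not deviate together from their group means (correlations of deviations 0.05, 0.04 and -0.03). This does not settle whether single genes follow the replicate number. With the block, the standard error of E2f8 went from 0.235 to 0.161 and that of Rb1 from 0.123 to 0.127. The block is given here only. It also called 4 G1 cyclins, kinases and inhibitors and 2 G2/M targets. DESeq2 called 5 G1 genes, 2 G2/M targets and 1 germline gene. Without a filter 4 G1 genes were called, and with a mean of at least 5 CPM 4 G1 genes and 1 germline gene. With 1 library left out, calls ran from 1 to 4 for G1 genes, 8 to 29 for G1/S targets, 0 to 6 for G2/M targets and 0 to 3 for Polycomb partners. Among all tested genes, those same settings called 42 to 1000 higher and 78 to 1030 lower. Over the other settings 21 to 34 G1/S targets were called. The lowest count of any member was 90, for E2f3 in control library 1. The causes of these shifts were not tested.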
